A study of Homo sapiens with 6 samples.

Results

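The loci of 10 secreted inflammatory proteins were examined in melanoma chromatin: IL6, CXCL8, CXCL1, CXCL2, IL1A, IL1B, CCL2, LIF, IL24 and SPP1. A peak was taken as a member when its centre lay inside the gene body, or when it lay between genes and the start site of one of the 10 genes was the nearest start of a protein-coding gene (GENCODE release 44 on hg38). This gave 68 of the 152800 peaks of the table, and all 68 passed the filter on low counts, as did 150117 peaks overall. Of the 68, 59 were intergenic and 9 lay in a gene body. Each gene had 2 to 19 peaks, and the farthest lay 64.7 kb from its start. The rule takes genes by name and peaks by position and uses no measured value, but the list of genes was drawn up with earlier results of these data known.

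The chromatin came from A375, an established human melanoma cell line. One group was HMGB2OE, a stable line made by lentiviral transduction and drug selection that overexpresses HMGB2, an HMG-box protein that binds and bends DNA, and the other carried an empty vector. ATAC-seq was done on 3 libraries of each group; in this assay the Tn5 transposase cuts and tags open DNA, so more open chromatin gives a peak more counts. The comparison asks which loci opened or closed when HMGB2 was raised. The study's reporting summary calls the libraries technical replicates of an experiment done once, so every p-value below measures the spread between these libraries and not between independent cultures. The promoter of the overexpression plasmid, and whether either line is a single clone, are not given in the sources used here.

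IL-1α and IL-1β are alarm cytokines, read by the same receptor, that switch on NF-kB and AP-1 in the receiving cell. NF-kB and AP-1 in turn open and transcribe the genes of IL-6, LIF, IL-8 (the product of CXCL8) and the other chemokines, so that one cytokine induces the next. Melanoma cells are known to make several of these factors themselves, and senescent and dedifferentiated cells secrete many of them together. Secretion and RNA were not measured in these libraries, so the values below describe open chromatin, and a site open in fewer cells cannot be told apart from one less open in each cell.

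The libraries held 26910189 to 45645294 counts in peaks, and TMM factors lay between 0.975 and 1.02. TMM sets the centre of all log2 fold changes near 0, so a shift shared by most peaks would not appear. Libraries of the same group differed by more than sampling noise (chi-square of 2.49 to 4.65 per degree of freedom), so each counts as 1 library. An exon peak of HMGB2 itself, chr4:173332680-173333181, had normalized counts of 50.0, 25 and 21.1 in the empty vector and 102.0, 100.9 and 92.3 in the HMGB2OE libraries, a log2 fold change of 1.67 (SE 0.249, adjusted p = 0.000113 by edgeR's quasi-likelihood test). Reads from the gene and from the coding sequence in the vector cannot be told apart there. Peaks at the start sites of melanocytic genes were present for 3 of 6 markers (SOX10, MITF and PMEL, not MLANA, TYR or DCT), for 1 of 6 blood markers (LYZ) and for 2 of 4 epithelial or endothelial markers (EPCAM and KRT8). None of these 6 start-site peaks passed the test, with log2 fold changes from -0.17 to 0.016.

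Accessibility was lower in HMGB2OE cells at 3 of the 68 cytokine and chemokine peaks and higher at none. The 3 were the start sites of IL24 and IL1A and a distal element upstream of CXCL8. Calls required a fold of 1.5 or more and an adjusted p under 0.05 in edgeR's quasi-likelihood test. These 3 peaks were 4.41% of the 68, against 1.44% of all tested peaks called lower, and the 0 called higher stood against 1.87% of all tested peaks. With DESeq2 the counts were again 3 and 0. At an unadjusted p under 0.05 from edgeR, 18 peaks were lower and 5 higher. The shares of all tested peaks by direction were not computed with DESeq2 or at this unadjusted threshold, so those counts have no baseline. The IL1A peak 19.9 kb upstream, among the 18, had rank 30050 by edgeR's test among the 150117 tested peaks. At least that many tested peaks, lower and higher together, thus passed the unadjusted threshold. At an adjusted p under 0.05 without a fold limit, 7 peaks (10.3%) were lower and 0 were higher, against 3.03% and 3.44% of all tested peaks; the 7 became 4 without empty vector replicate 2, without HMGB2OE replicate 2 or without HMGB2OE replicate 3, and up to 9 when another library was left out.

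Most of the remaining peaks had values a little below 0. Of the 68 log2 fold changes, 47 (69.1%) were below 0, against 50.8% of all tested peaks. Their median was -0.13, against -0.0049 over all tested peaks, and they ranged from -1.40 to 0.57. All 3 HMGB2OE libraries lay below all 3 empty vector libraries at 19 peaks (27.9%), against 12.5% of all tested peaks, and above them at 1 peak (1.47%), against 12.6%.

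**Figure D1:**
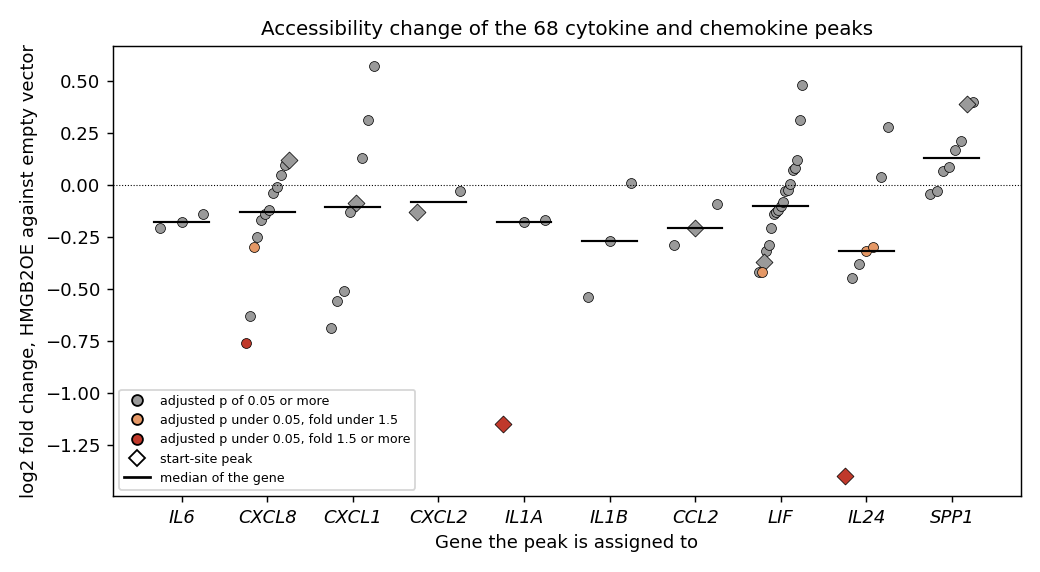
Log2 fold change of accessibility, HMGB2OE against empty vector (vertical axis), for each of the 68 peaks, grouped by the gene to which it is assigned (horizontal axis); diamonds are start-site peaks, the bars are medians per gene, and colour gives the result of edgeR's test. Red points mark the 3 called peaks, at IL24 (-1.40), IL1A (-1.15) and CXCL8 (-0.76), while SPP1 has its median above 0 at 0.13.

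A start-site peak was defined as the tested peak centred nearest to the gene start and within 1 kb of it. Of the 10 genes, 8 had a start-site peak among their own peaks. IL1B had none within 1 kb, and the peak nearest to the IL6 start was centred in STEAP1B, a gene that overlaps IL6. The 8 peaks are compared here with the 12037 start-site peaks of all protein-coding genes, because start sites as a class lay slightly below 0: 71.9% of them had a log2 fold change below 0, and their median was -0.074. Called lower were 2 of the 8, against 0.274% of the 12037. The 8 were not matched to the class by accessibility. In mean normalized count, the called IL24 and IL1A starts were above 45.7% and 54.6% of all tested peaks. The median of the 8 was -0.17, with the HMGB2OE libraries entirely below the empty vector libraries at 4 of the 8 and entirely above at 1, where the class as a whole had 21.0% and 4.91%.

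**Figure D2:**
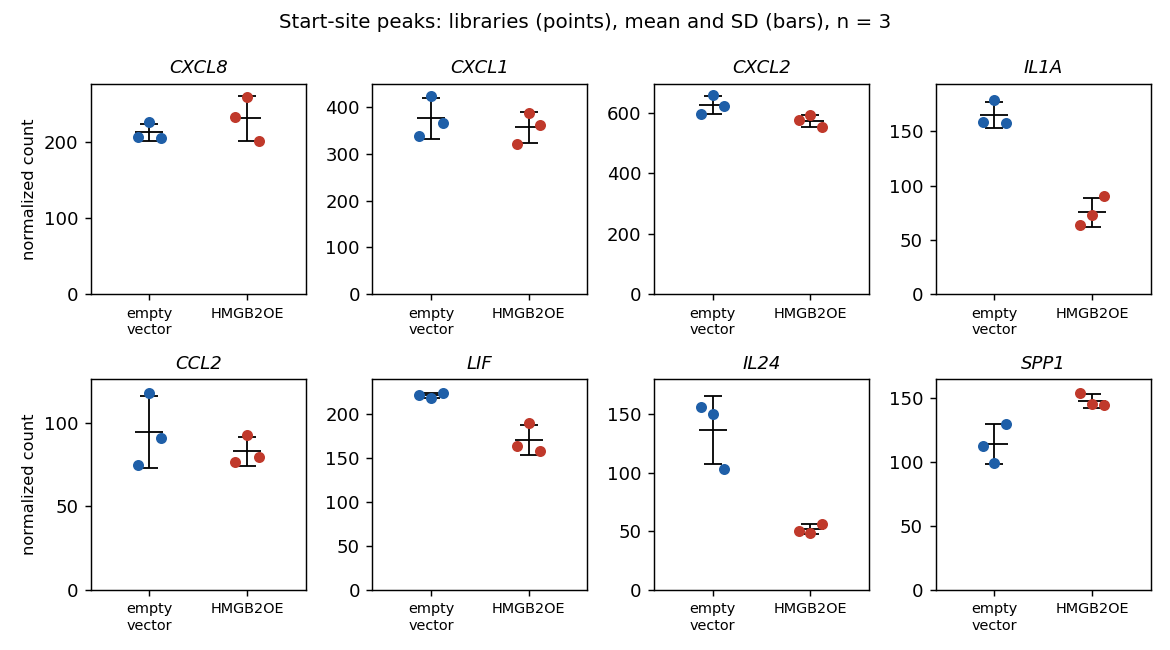
Normalized counts (vertical axes, each from 0) of the start-site peaks of 8 genes in the 3 empty vector and 3 HMGB2OE libraries; points are libraries and bars are the mean and SD. The groups are far apart for IL1A (165.1 against 75.5) and IL24 (136.1 against 51.6), and HMGB2OE libraries lie above all empty vector libraries for SPP1 alone.

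The sequences of these start sites are shown for the pair that lost accessibility, IL24 and IL1A, for CXCL8, whose start did not pass the test while its distal element did, and for SPP1, whose libraries lay in the opposite direction. Each is the part of the peak that precedes the annotated gene start, read 5′ to 3′ on the gene's strand of hg38. For SPP1 only the last 300 bases of that part are shown. The distal CXCL8 element is the middle of its peak. Capitals mark a match to TGANTCA (the AP-1 word) or GGNNNTTCC (the NF-kB word) on either strand.
IL24 start, chr1:206897176-206897442, plus strand: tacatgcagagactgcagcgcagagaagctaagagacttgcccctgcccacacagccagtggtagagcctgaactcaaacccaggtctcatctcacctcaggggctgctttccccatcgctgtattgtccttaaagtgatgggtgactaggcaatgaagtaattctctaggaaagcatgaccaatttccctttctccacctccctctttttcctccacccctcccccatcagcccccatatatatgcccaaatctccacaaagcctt
IL1A start, chr2:112784494-112784696, minus strand: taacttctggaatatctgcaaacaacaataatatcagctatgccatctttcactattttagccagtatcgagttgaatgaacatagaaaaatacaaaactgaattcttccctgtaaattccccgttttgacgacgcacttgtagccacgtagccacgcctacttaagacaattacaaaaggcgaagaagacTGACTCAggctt
CXCL8 start, chr4:73740329-73740518, plus strand: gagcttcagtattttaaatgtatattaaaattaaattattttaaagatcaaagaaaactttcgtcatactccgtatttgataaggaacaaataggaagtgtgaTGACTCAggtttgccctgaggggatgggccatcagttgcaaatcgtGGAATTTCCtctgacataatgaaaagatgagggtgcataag
CXCL8 distal element, chr4:73705717-73706016, plus strand: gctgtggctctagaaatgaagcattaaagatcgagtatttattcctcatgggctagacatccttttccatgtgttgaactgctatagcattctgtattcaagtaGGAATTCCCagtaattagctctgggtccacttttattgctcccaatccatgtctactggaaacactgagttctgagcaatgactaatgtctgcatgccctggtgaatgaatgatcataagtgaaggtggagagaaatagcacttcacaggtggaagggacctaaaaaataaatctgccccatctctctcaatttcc
SPP1 start, chr4:87975367-87975666, plus strand: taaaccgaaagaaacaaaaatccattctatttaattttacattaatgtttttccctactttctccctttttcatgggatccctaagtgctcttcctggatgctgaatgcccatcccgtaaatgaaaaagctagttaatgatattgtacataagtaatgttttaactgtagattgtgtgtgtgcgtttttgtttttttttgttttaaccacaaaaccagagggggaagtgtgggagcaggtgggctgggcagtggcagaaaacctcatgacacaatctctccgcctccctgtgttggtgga

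In the IL1A sequence the AP-1 word TGACTCA begins 12 bases before the gene start. In the CXCL8 sequence TGACTCA begins 87 bases and the NF-kB word GGAATTTCC 41 bases before the start, and the distal element of CXCL8 holds the NF-kB word GGAATTCCC. The IL24 and SPP1 sequences hold no match to either word. The AP-1 word was present in 36 of the 68 peaks (52.9%), against 36.4% of all tested peaks, the NF-kB word in 26 (38.2%, against 24.6%) and the C/EBP word TTGCNNAA in 19 (27.9%, against 21.7%), searched on both strands of each whole peak. Peaks with the AP-1 word had a median log2 fold change of -0.11 and those without it -0.13, and 1 of the 3 called peaks held it. A match describes letters in a window and is not a measured binding site.

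IL24 had the lowest value of the 68 peaks. IL24 is a secreted cytokine of the IL-10 family, first isolated from differentiating melanoma cells, and it signals through receptors that hold IL20RB. The gene (ENSG00000162892.16) lies on the plus strand of chromosome 1 from 206897443 to 206904139. Its start-site peak, chr1:206897176-206897677, covers 173 exonic bases and no coding base. Its normalized counts were 155.7, 149.7 and 103.0 in the empty vector libraries and 50.2, 48.4 and 56.3 in the HMGB2OE libraries. The lowest empty vector library was above the highest HMGB2OE library, and empty vector replicate 3 was lower than the other empty vector libraries. The means were 136.1 ± 28.9 and 51.6 ± 4.15 (SD, n = 3 each), 2.65-fold lower, with a log2 fold change of -1.40 (SE 0.191, adjusted p = 4.21e-05 by edgeR's quasi-likelihood test). Leaving out any 1 library gave values of -1.57 to -1.31 and an adjusted p of at most 0.000667. Among the 12037 start-site peaks this was the 2nd lowest log2 fold change.

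The other IL24 peaks were lower by less, or not lower. The most accessible of them, 6.51 kb upstream at chr1:206890682-206891183, had 1965.1, 2263.7 and 2101.6 normalized counts in the empty vector and 1866.7, 1728.2 and 1551.3 in HMGB2OE libraries. The groups did not overlap and the log2 fold change was -0.30 (SE 0.0793, adjusted p = 0.0201), under the fold limit of 1.5. A peak 4.77 kb upstream fell by a similar amount (-0.32, adjusted p = 0.0376). Both depended on single libraries: the first had an adjusted p of 0.139 without empty vector replicate 2, and the second had one of 0.193 without HMGB2OE replicate 3. In contrast, the peak 1.29 kb into the gene, the nearest on the other side of the start, had a log2 fold change of 0.28 (284.6 ± 34 against 343.9 ± 25 normalized counts, adjusted p = 0.141). The peak 6.47 kb after the start, shared with the neighbouring gene FCMR, had -0.45 (170.5 against 123.8, adjusted p = 0.0569). The peak 9.55 kb upstream had -0.38 (adjusted p = 0.189). Neither of these 2 passed, though in both the HMGB2OE libraries lay below all empty vector libraries. Summed over its 7 peaks, IL24 had 3795.2, 3826.4 and 3715.3 normalized counts in the empty vector and 3452.0, 3234.1 and 2928.4 in HMGB2OE libraries (log2 fold change -0.24, SE 0.0502, adjusted p = 0.00731; 0.0568 without empty vector replicate 2). Within 500 kb on either side the 109 tested peaks of other genes had a median log2 fold change of -0.023.

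IL24 lies in a cluster with IL10, IL19 and IL20, which encode related cytokines, and most of their peaks had values above 0. Of the 12 IL19 peaks, 9 were above 0 and 3 below, where 50.8% of all tested peaks were below 0. The intronic IL19 peak 70.8 kb upstream rose from 134.8, 106.7 and 152.1 to 204.9, 216.0 and 252.2 normalized counts (log2 fold change 0.78, SE 0.144, adjusted p = 0.00111). IL10, an anti-inflammatory cytokine, had 1 peak, which is also the start-site peak of IL19. It did not pass in the fit over peaks (1014.5 against 1219.1 normalized counts, log2 fold change 0.26, adjusted p = 0.0553), but it passed as a gene in the fit over genes (0.30, adjusted p = 0.00848; adjusted p = 0.06 without empty vector replicate 2). The single peak of IL20 had 0.57 in the fit over genes (adjusted p = 0.0513). On the other side of IL24, all 5 peaks given to FCMR alone, an Fc receptor gene, were below 0, from -0.27 to -0.11, with none called. The start site of PFKFB2, a glycolytic regulator 136.9 kb away, had 111.6 and 54.7 normalized counts (log2 fold change -1.03, SE 0.199, adjusted p = 0.00168).

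IL1A also lost accessibility at its start. IL-1α is an alarm cytokine that is stored in the cell and acts when released or shown at the surface, through the receptor IL1R1. The gene (ENSG00000115008.6) lies on the minus strand of chromosome 2 from 112773925 to 112784493. Its start-site peak, chr2:112784195-112784696, holds 51 exonic and 0 coding bases. The normalized counts were 158.4, 179.0 and 158.0 in the empty vector and 63.8, 72.6 and 90.1 in HMGB2OE libraries. The groups stood well apart, with means of 165.1 ± 12 and 75.5 ± 13.4 (SD, n = 3 each), 2.21-fold lower. The log2 fold change was -1.15 (SE 0.163, adjusted p = 6.67e-05), the 5th lowest among the 12037 start-site peaks. Leaving out any 1 library gave -1.28 to -1.04 (adjusted p at most 0.00162).

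The most accessible IL1A peak lies 19.9 kb before the start at chr2:112804137-112804638, and it did not pass the test. Its normalized counts were 1116.0, 1180.5 and 1046.1 in the empty vector and 1064.3, 1010.1 and 875.9 in HMGB2OE libraries, which overlap (log2 fold change -0.18, SE 0.0858, adjusted p = 0.228). The third IL1A peak, farther upstream, had 24.2 ± 4.43 and 21.5 ± 8.86 normalized counts (-0.17, adjusted p = 0.853). The sum over the 3 peaks was lower in HMGB2OE cells (1290.8 ± 73.0 against 1092.8 ± 80.5, log2 fold change -0.24, SE 0.0633, adjusted p = 0.0244), but not without empty vector replicate 1, empty vector replicate 2 or HMGB2OE replicate 3 (adjusted p of 0.0692, 0.154 and 0.11). The nearest other start site, that of CKAP2L at 19.8 kb, had 1420.7 and 1270.3 normalized counts (-0.16, adjusted p = 0.23). The 100 tested peaks of other genes within 500 kb had a median of -0.073.

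IL1B, the secreted and best known IL-1, had 3 peaks and none at its start. The most accessible, chr2:112869453-112869954, lies 32.9 kb before the start. Its normalized counts were 599.0, 626.4 and 580.4 in the empty vector and 495.6, 508.0 and 496.5 in HMGB2OE libraries. The groups did not overlap, but the log2 fold change of -0.27 did not pass (SE 0.0916, adjusted p = 0.075). The peak 31.7 kb before the start had -0.54 (adjusted p = 0.226) at 53.6 and 36.6 normalized counts, and the peak 23.9 kb after the start had 0.0086. IL37, an anti-inflammatory relative in the same cluster, had 1 called peak 92.6 kb from the IL1A start, with 102.8, 81.7 and 106.5 normalized counts in the empty vector and 64.6, 50.0 and 58.5 in HMGB2OE libraries (-0.74, adjusted p = 0.0216; 0.102 without HMGB2OE replicate 2).

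**Figure D3:**
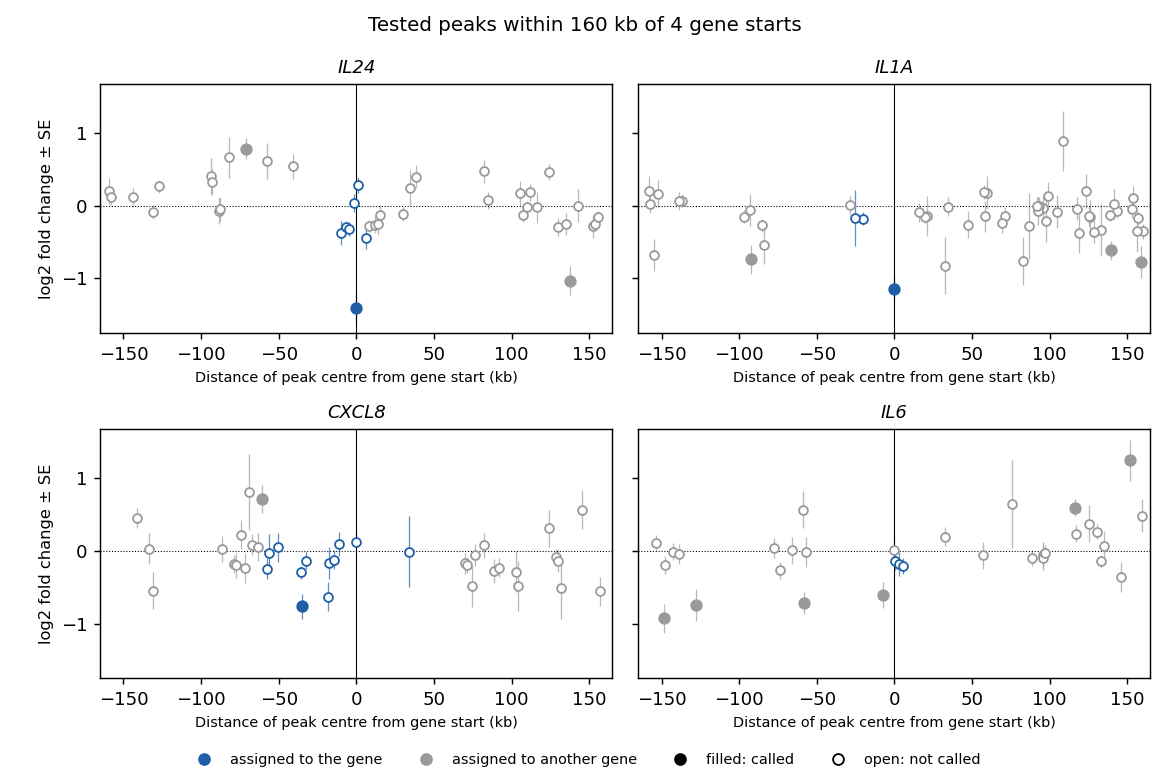
Log2 fold change with its SE (vertical axes) of every tested peak within 160 kb of the starts of IL24, IL1A, CXCL8 and IL6, against distance from the start in kb (horizontal axes, negative upstream); blue peaks are assigned to the gene and filled peaks were called. The called IL24 and IL1A peaks sit on the start line at -1.40 and -1.15, with called peaks of other genes farther out on both sides of 0 in the IL24 panel and below 0 in the IL1A panel. That of CXCL8 lies 34.7 kb upstream, and 4 called peaks upstream of IL6 belong to STEAP1B. Called peaks of other genes also lie above 0 in these panels. They lie 60.5 kb upstream of CXCL8 (0.71) and 116.2 and 151.6 kb downstream of the IL6 start (0.59 and 1.24).

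CXCL8 differed from IL24 and IL1A in where accessibility was lower. CXCL8 encodes IL-8, a chemokine that draws neutrophils and acts on CXCR1 and CXCR2, and it is one of the strongest NF-kB and AP-1 targets known. The gene (ENSG00000169429.12) starts at 73740519 on the plus strand of chromosome 4. Its start-site peak, chr4:73740329-73740830, had 207.1, 226.3 and 206.0 normalized counts in the empty vector and 233.8, 260.2 and 201.5 in HMGB2OE libraries. These ranges overlap, and the log2 fold change was 0.12 (SE 0.125, adjusted p = 0.625).

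The called CXCL8 peak, chr4:73705616-73706117, lies 34.7 kb upstream. Its normalized counts were 115.4, 123.0 and 125.2 in the empty vector and 82.5, 69.2 and 61.9 in HMGB2OE libraries. The groups did not overlap, and the empty vector libraries were close together. The means were 121.2 ± 5.18 and 71.2 ± 10.4 (SD, n = 3 each), 1.69-fold lower, with a log2 fold change of -0.76 (SE 0.173, adjusted p = 0.0070). It stayed called with each library left out, at an adjusted p of at most 0.0333. The most accessible CXCL8 peak, 35.9 kb upstream and so next to it, had 885.3, 1045.4 and 911.6 normalized counts in the empty vector and 812.6, 773.2 and 734.0 in HMGB2OE libraries (-0.30, SE 0.0871, adjusted p = 0.0372; 0.237 without empty vector replicate 2). A peak 18.4 kb upstream had 93.5 ± 8.38 and 59.6 ± 14.7 normalized counts, groups that did not overlap, and missed the threshold (-0.63, SE 0.204, adjusted p = 0.0593).

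Over the 12 CXCL8 peaks, 9 were below 0. The summed counts were 2502.9, 2533.7 and 2318.3 in the empty vector and 2197.3, 2304.4 and 2025.0 in HMGB2OE libraries (log2 fold change -0.17, SE 0.0523, adjusted p = 0.0471). Leaving out empty vector replicate 1, empty vector replicate 2, HMGB2OE replicate 1 or HMGB2OE replicate 3 raised the adjusted p to between 0.115 and 0.21.

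CXCL1 and CXCL2 lie in the same chemokine cluster and encode ligands of CXCR2. At the CXCL1 start the normalized counts were 337.7, 424.2 and 367.4 in the empty vector and 320.5, 387.8 and 362.5 in HMGB2OE libraries, which overlap (log2 fold change -0.085, SE 0.112, adjusted p = 0.721). At the CXCL2 start they were 596.2, 657.3 and 621.4 against 574.6, 592.2 and 551.6, groups that did not overlap but differed little (-0.13, SE 0.0904, adjusted p = 0.452). The CXCL1 peak 33.0 kb after the start had a log2 fold change of -0.69 at 33.1 and 20.7 normalized counts (SE 0.348, adjusted p = 0.253), and the peak 16.6 kb after the start had 0.57 (adjusted p = 0.231). Neither gene passed on its sum, with -0.034 for CXCL1 (adjusted p = 0.792) and -0.087 for CXCL2 (adjusted p = 0.48).

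The rest of that cluster was examined because it lies between these members; it was chosen for its position after the values were seen. Of the 17 peaks that belong to CXCL6, PF4, CXCL5 and CXCL3, 16 were below 0 and 1 was called lower. Among all tested peaks the shares were 50.8% and 1.44%. CXCL3, a CXCR2 ligand like its neighbours, had a called peak at chr4:74044670-74045171 that fell from 50.0, 57.6 and 51.5 to 13.6, 18.3 and 22.5 normalized counts (log2 fold change -1.56, SE 0.311, adjusted p = 0.00222), 6.11 kb from a gene start. Its summed counts were also lower (856.0 against 664.8, -0.36, adjusted p = 0.00362), and so were those of CXCL5, which attracts neutrophils (662.5 against 506.3, -0.40, adjusted p = 0.0127; 0.126 without empty vector replicate 2). CXCL6 had -0.15 (adjusted p = 0.136).

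CCL2 stands apart from this cluster, on chromosome 17, and attracts monocytes through CCR2. Its 3 peaks were all below 0 and none passed. The start-site peak had 75.0, 117.9 and 91.3 normalized counts in the empty vector and 76.5, 92.6 and 79.9 in HMGB2OE libraries (log2 fold change -0.21, SE 0.187, adjusted p = 0.567). The most accessible, 16.4 kb upstream, had 212.6, 258.1 and 297.2 against 211.7, 228.5 and 190.3 (-0.29, SE 0.129, adjusted p = 0.198). In both peaks the groups overlap. The 22 other tested peaks within 500 kb had a median of 0.19, the highest around any of the 10 genes.

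IL6 and LIF encode cytokines that share the receptor subunit gp130, the product of IL6ST. IL6 had 3 peaks, all in the gene body, with log2 fold changes of -0.14, -0.18 and -0.21 (adjusted p from 0.279 to 0.588). The peak with -0.14 also lies in the body of STEAP1B. The most accessible had 397.5, 548.1 and 527.7 normalized counts in the empty vector and 423.3, 428.7 and 432.3 in HMGB2OE libraries, and the low first empty vector library made the groups overlap. On the sum IL6 had -0.15 (SE 0.075, adjusted p = 0.219).

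Upstream of IL6 the rule gave the peaks to STEAP1B, a gene of the STEAP family in whose body they are centred. For 17 tested peaks there the nearest start site was that of IL6. The one at the IL6 start had a log2 fold change of 0.014 (adjusted p = 0.978). Against 1.44% of all tested peaks, 4 of the 17 were called lower, at 7.43, 58.0, 127.8 and 148.2 kb upstream. The farthest fell from 93.1, 85.2 and 93.6 to 47.6, 49.2 and 45.0 normalized counts (-0.93, SE 0.203, adjusted p = 0.00495), and the one at 58.0 kb from 144.5, 222.0 and 179.0 to 103.7, 119.3 and 113.7 (-0.71, SE 0.155, adjusted p = 0.00461; 0.0784 without empty vector replicate 2). The others had -0.75 (adjusted p = 0.0354) and -0.61 (adjusted p = 0.0367), and each of these calls was lost with 5 of the 6 libraries left out in turn. With every peak given to its nearest start site, whatever gene it lies in, the 10 genes had 85 peaks. Of these 85, 7 were called lower, in place of 3 of 68.

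LIF, which holds mouse embryonic stem cells undifferentiated and acts through LIFR and gp130, had the most peaks, 19, of which 13 were below 0. At its start the normalized counts were 222.4, 218.5 and 224.7 in the empty vector and 164.1, 190.2 and 158.7 in HMGB2OE libraries. The groups did not overlap, with means of 221.9 ± 3.10 and 171.0 ± 16.8 (SD, n = 3 each), but the log2 fold change of -0.37 missed the threshold (SE 0.127, adjusted p = 0.076). A peak 39.6 kb after the start, chr22:30206909-30207410, was lower, with 918.6, 1059.1 and 971.2 against 809.2, 751.5 and 647.3 normalized counts (-0.42, SE 0.0908, adjusted p = 0.00489), short of the fold limit, and its adjusted p stayed at or under 0.0413 with each library left out. The most accessible LIF peak, 50.4 kb after the start, had 1922.6 ± 169.9 and 1883.1 ± 37.8 normalized counts (-0.031, adjusted p = 0.865). Its neighbour OSM, a related gp130 cytokine, had a lower summed count (785.0 against 632.4, -0.31, adjusted p = 0.00987; 0.0661 without empty vector replicate 2).

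SPP1 was the exception in direction. SPP1 encodes osteopontin, a phosphorylated matrix protein and cytokine that binds integrins and CD44 and is made by many invasive tumours. Of its 8 peaks, 6 were above 0, with a median of 0.13. The start-site peak had 112.6, 98.9 and 129.9 normalized counts in the empty vector and 153.9, 145.1 and 144.1 in HMGB2OE libraries. This is the 1 peak of the 68 in which every HMGB2OE library was above every empty vector library, with means of 113.8 ± 15.5 and 147.7 ± 5.36 (SD, n = 3 each), but the log2 fold change of 0.39 did not pass (SE 0.151, adjusted p = 0.128). The most accessible SPP1 peak, 2.14 kb upstream, had 806.1, 791.6 and 658.8 against 793.1, 775.7 and 797.0 (0.068, adjusted p = 0.722). Over the sum the libraries were again separate, at 1751.7, 1647.9 and 1592.1 against 1770.0, 1831.6 and 1956.1 (log2 fold change 0.15, SE 0.0525, adjusted p = 0.0705; 0.0473 without empty vector replicate 1).

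Summing the counts of all peaks of a gene gave 1 value per gene for 18340 protein-coding genes. Of the 10 genes, 3 (IL24, IL1A and CXCL8) were lower at an adjusted p under 0.05 and 0 were higher, against 3.44% and 5.83% of all genes. At an unadjusted p under 0.05, 3 were lower and 1 (SPP1) was higher, and DESeq2 gave adjusted counts of 3 and 0. The shares of all genes were not computed for either setting, so these counts have no baseline. The count of 3 was not stable: it was 1 without empty vector replicate 1 (IL24), 0 without empty vector replicate 2 and 1 without HMGB2OE replicate 3 (IL24). In all, 9 of the 10 sums were below 0 and SPP1 alone was above.

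**Figure D4:**
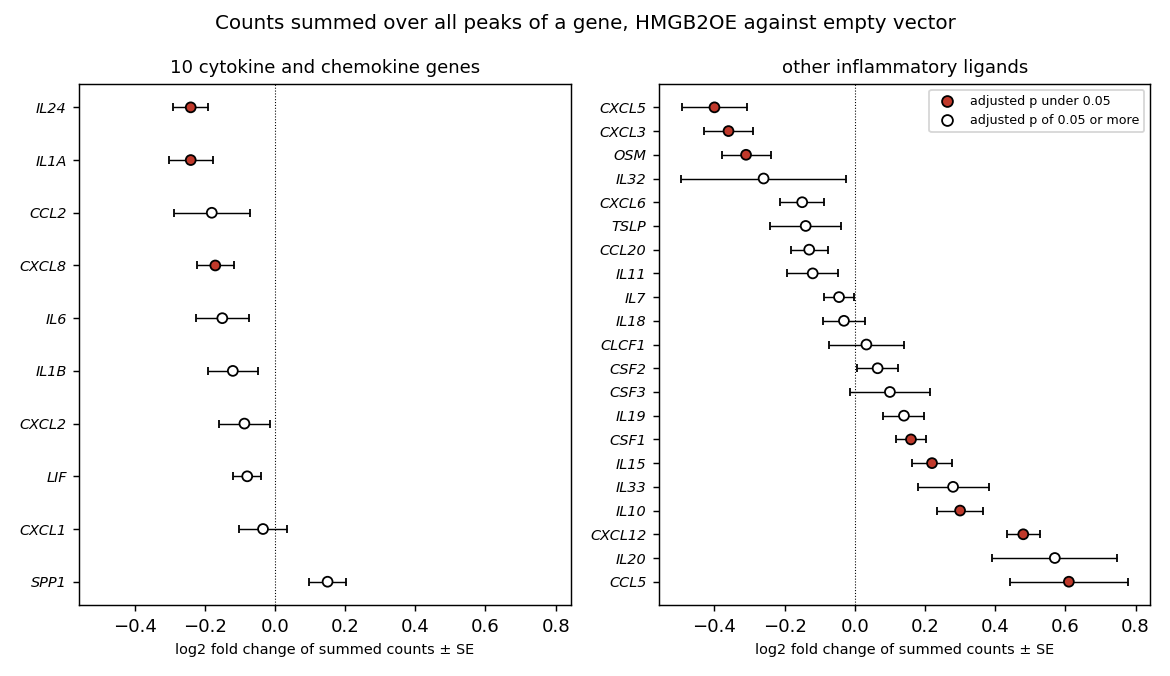
Log2 fold change with its SE (horizontal axes) of counts summed over all peaks of a gene, HMGB2OE against empty vector, for the 10 genes (left) and 21 other inflammatory ligands (right); filled points have an adjusted p under 0.05. The 10 genes lie between -0.24 (IL24 and IL1A) and 0.15 (SPP1), and the other ligands spread to both sides, with CXCL5 at -0.40 and CXCL12 at 0.48.

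The other genes of these pathways were taken from 3 lists: receptors of the 10 proteins, NF-kB signalling, and other inflammatory ligands. The receptor list also holds IL1RN, which encodes an antagonist of the IL-1 receptor and not a receptor. The ligands had calls on both sides. Of 26 ligand genes, 21 had a tested peak, and of their 123 peaks 2 (1.63%) were called lower and 8 (6.50%) higher, with a median of 0.054; among all tested peaks the shares were 1.44% and 1.87%. This balance moved with single libraries: the counts were 7 and 7 without empty vector replicate 3, 5 and 5 without HMGB2OE replicate 2, and 6 and 4 without HMGB2OE replicate 3, and with the loess trend they were 8 and 8. On sums, 3 were lower (CXCL3, CXCL5 and OSM) and 5 higher (CXCL12, CCL5, CSF1, IL10 and IL15), against 3.44% and 5.83% of all genes. The calls of CCL5, CSF1 and IL15 were kept in 1, 2 and 2 of the 6 fits that left out 1 library, with an adjusted p of up to 0.0948, 0.0861 and 0.141. CXCL12, the chemokine that guides CXCR4-bearing cells, had 1589.7, 1608.6 and 1670.6 summed counts in the empty vector and 2288.8, 2305.3 and 2178.8 in HMGB2OE libraries (log2 fold change 0.48, SE 0.0464, adjusted p = 1.15e-05), and 4 of its 10 peaks were called higher, all intergenic and 75.4 to 191.0 kb from a gene start; 3 of these calls were kept with each library left out, and that of the peak from 44306661 (adjusted p = 0.0475) was lost whichever library was left out. TSLP, an epithelial cytokine, had 1 peak lower, in its gene body (-1.01, adjusted p = 0.00883; 0.0575 without HMGB2OE replicate 1), and 1 higher (0.77, adjusted p = 0.0138; 0.0934 without empty vector replicate 2).

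Of 194 peaks of the 17 genes on the receptor list, 1 (0.515%) was called lower and 1 (0.515%) higher. Both were under the shares of all tested peaks (1.44% and 1.87%), and the median was 2e-05. Without the fold limit 8 (4.12%) were lower and 3 (1.55%) higher, against 3.03% and 3.44%. LIFR, the receptor of LIF, had a peak that rose from 251.6, 367.4 and 307.8 to 493.0, 515.5 and 417.7 normalized counts (0.61, SE 0.12, adjusted p = 0.00195; under the fold limit without empty vector replicate 1 or HMGB2OE replicate 2) and a higher sum (0.16, adjusted p = 0.0167; 0.0781 without HMGB2OE replicate 2). IL6ST, the shared subunit, had 1 peak lower, 2.85 kb from a gene start (-0.67, adjusted p = 0.0176; 0.0847 without HMGB2OE replicate 2).

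Of 203 peaks of 21 NF-kB signalling genes, 5 (2.46%) were called lower and 4 (1.97%) higher, against 1.44% and 1.87% of all tested peaks, with a median of -0.043. NFKBIZ, an atypical IκB that acts with NF-kB on IL6 and other targets, held 2 of the 5. Both were intergenic, 74.3 and 116.4 kb from a gene start. At the nearer peak NFKBIZ had -0.71 (adjusted p = 0.00152), and -0.57, under the fold limit, without empty vector replicate 2. Its peak chr3:101944170-101944671 fell from 79.2, 95.5 and 76.1 to 25.5, 42.5 and 22.5 normalized counts (-1.45, SE 0.25, adjusted p = 0.000549), and the sum over its 19 peaks was lower (-0.14, adjusted p = 0.0217; 0.113 without HMGB2OE replicate 1). NFKBIA, the inhibitor that NF-kB itself induces, had 1 peak higher, 19.2 kb from a gene start (0.76, SE 0.159, adjusted p = 0.00344; 0.57, under the fold limit, without empty vector replicate 2). TNFAIP3 had 1 peak lower, in its gene body (-0.91, adjusted p = 0.0203), and 1 intergenic peak higher (0.89, adjusted p = 0.0397). These TNFAIP3 calls were kept in 2 and 1 of the 6 fits that left out 1 library. The called peaks of MAP3K7, the kinase TAK1, went in both directions (-0.83, 1.10 and 0.83, the last not called without empty vector replicate 1 or HMGB2OE replicate 1, with an adjusted p of up to 0.0767) and lay 283.6 to 1117.7 kb from a gene start, and that of TLR4, the endotoxin receptor (-1.25, adjusted p = 0.00728), lay 658.3 kb from one, so that the gene's name is a label of position for these peaks.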

How the data were processed

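ATAC-seq libraries of A375 cells (3 empty vector, 3 HMGB2OE) were compared as grouped by the labels. Reads were trimmed by the authors (Trim Galore 0.6.7, cutadapt 4.0) and mapped to hg38 by Bowtie 2. After removal of duplicates, MACS2 peaks were called with public melanocyte data as the control and nearby peaks were joined. The authors deposited whole-number counts per peak from featureCounts, with no normalization and no pooling of libraries. Whether positions were shifted for Tn5, how reads with several alignments were treated, and whether peaks were called per library are not given in the sources used here; each could change weak peaks. Of 152800 peaks, 152785 were 502 bp wide, and 5 ended past their hg38 sequence.

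From the deposited counts, edgeR 4.0.16 in R 4.3.3 was run with TMM scaling and filterByExpr, which kept 150117 peaks. HMGB2OE was compared with empty vector by the quasi-likelihood F test without covariates, with Benjamini-Hochberg adjustment over all of them. The SE of a log2 fold change is its size divided by the square root of F. A normalized count is the count divided by the library total times its TMM factor, multiplied by the mean of these sizes over libraries. A peak centred in the body of a protein-coding gene (GENCODE release 44) counted for that gene, and any other peak for the closest start site of such a gene. Counts summed per gene were fitted the same way over 18340 genes. The script was tested on simulated data with known changes.

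All 10 genes were named, with their start-site peaks, their called peaks, up to 5 peaks of largest fold change per direction with separate libraries, and their most accessible peak. From the lists of receptors, NF-kB genes and other ligands, the 10 genes of smallest adjusted p were named. The other genes and peaks given (the flanks of the 10 genes, CXCL5, OSM, CCL5, CSF1, IL15, IL6ST, TNFAIP3, STEAP1B, IL37, FCMR, PFKFB2, the LIF peak that passed without the fold limit, and the other IL24 peaks) were picked once their values were known. The 10 genes and the lists were chosen with earlier results of these data known. The alternatives were other scalings (library size only, DESeq2 size factors, a loess trend on mean count, GC-content offsets), DESeq2 1.42.0, no count filter or a minimum of 10 in each library, a block for the replicate number, leaving out each library, other fold limits and other rules of peak assignment. Counting error and the spread between libraries are both in the test; the deposited table gives no other measure of depth.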

Additional observations from a re-analysis of the deposited data

How the results depend on the processing

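The calls at the starts of IL24 and IL1A and at the CXCL8 peak 34.7 kb upstream were kept in all 15 alternatives computed for single peaks, with log2 fold changes of -1.57 to -1.31, -1.28 to -1.04 and -0.88 to -0.68. Of the 10 genes' 68 peaks, 3 were called lower in the main fit and 7 with no fold limit. With every peak given to the nearest start site, 7 of 85 were called lower, of which the 4 added peaks lie in STEAP1B. Without 1 library the count was 3 to 4, and 0 were called higher in all 20 alternatives. Genes lower on summed counts numbered 3, and 0 to 3 without 1 library; genes higher numbered 0, and 0 to 1. The median over the 68 peaks lay between -0.16 and -0.083.

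Replicate numbers gave no clear pairing of the libraries. The deviations of same-numbered libraries correlated at -0.0884, 0.191 and 0.128, and those of differently numbered libraries at -0.27 to 0.158. With the replicate number as a block, 4 of the 68 peaks were called lower, the added one 18.4 kb upstream of CXCL8, and the receptor list had 2 peaks higher in place of 1. That CXCL8 peak had -0.66 with the block (adjusted p = 0.0305) and was also called with the loess trend (-0.66, adjusted p = 0.0398), but not with GC-content offsets (-0.48, adjusted p = 0.157) or with the block and GC-content offsets together (-0.50, adjusted p = 0.118). The LIF start-site peak had -0.43 with GC-content offsets (adjusted p = 0.0393) and with the block and GC-content offsets (adjusted p = 0.0256). Both stayed short of the fold limit, and leaving out 1 library gave an adjusted p of up to 0.23.

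The list counts moved more. Receptor peaks called lower were 3 with the loess trend, 2 with GC-content offsets, 2 with the block and GC-content offsets together, and 0 to 2 without 1 library; those called higher were 0 with GC-content offsets, 2 with the block and GC-content offsets, and 0 to 3 without 1 library. NF-kB peaks without 1 library were 3 to 6 lower and 2 to 4 higher. Peaks of the other ligands called lower were 8 with the loess trend, 4 with GC-content offsets, 5 with the block and GC-content offsets, and 1 to 7 without 1 library; those called higher were 5 with DESeq2, and 4 to 8 without 1 library. Values that turned sign were all near 0. The LIF peak 50.4 kb after the start had 0.032 with the loess trend and -0.09 to 0.031 without 1 library (above 0 without empty vector replicate 3), the CXCL1 start had -0.15 to 0.016 (above 0 without empty vector replicate 2), the CXCL1 sum -0.076 to 0.017 (0.017 without empty vector replicate 2 and 0.0045 without HMGB2OE replicate 1) and the SPP1 peak 2.14 kb upstream -0.021 to 0.12 (below 0 without empty vector replicate 3). The cause of these moves was not tested. Low counts limit peaks such as the CXCL1 peak 33.0 kb after the start, where raw counts were 19 to 40 per library.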
